A study of Homo sapiens with 8 samples.

Results

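The *ABCA5*, *ABCA6*, *ABCA8*, *ABCA9* and *ABCA10* genes form a cluster on chromosome 17, and their RNA was followed in A375 human melanoma cells after serum withdrawal. These 5 of the 58051 genes counted were selected on the measurements themselves, from the rise of *ABCA6* without serum, the largest of any protein-coding gene that averaged 100 counts or more. Their changes between the conditions are therefore given as a description, with no test. Each of 4 wild-type A375 lines, WT1 to WT4, was cultured for 12 h in DMEM with 10% fetal bovine serum (FBS) or in DMEM with 0% FBS. This gave 8 libraries of ribosome-depleted total RNA, 4 per condition and 1 per line in each. The study's methods speak of wild-type lines as parental to its knockout clones. What sets WT1 to WT4 apart from each other is not given in the sources used here, and the deposited counts of WT4 carry another name, so that line rests on its label.

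ABC transporters are membrane proteins that use ATP to move substrates across or within membranes, and those of the A subfamily mostly handle lipids. The cluster genes encode the ABCA5-like branch of that subfamily, full-length transporters whose substrates are less well defined than those of ABCA1. ABCA5 resides in lysosomes and late endosomes, ABCA8 has been linked to cholesterol efflux, and *ABCA6*, *ABCA9* and *ABCA10* are known as cholesterol-responsive genes in macrophages.

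The library totals, counted on genes, were 39647157 (WT1), 67101005 (WT2), 45095740 (WT3) and 29759279 (WT4) with serum. Without serum they were 40468165, 73341551, 37847737 and 53371498 in the same order of lines. In these libraries 3 counts, the most that a count of 0 allows, corresponded to between 0.0393 and 0.106 CPM (counts scaled to library size by edgeR's TMM method). Such floors cover counting error only.

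In the RefSeq annotation of GRCh38.p14 the cluster spans 459.8 kb, and all its genes lie on the minus strand. *ABCA5* (ENSG00000154265, 69244311 to 69327133) comes first in the direction of transcription. It is followed by *ABCA10* (ENSG00000154263, 69148007 to 69244848), *ABCA6* (ENSG00000154262, 69078702 to 69141895), *ABCA9* (ENSG00000154258, 68974488 to 69078977) and *ABCA8* (ENSG00000141338, 68867289 to 68955392). The annotated ends of *ABCA5* and *ABCA10* overlap by 538 bases and those of *ABCA6* and *ABCA9* by 276 bases. Of the stretches of 100 bases in *ABCA10* transcripts, 2.32% also occurred in another cluster gene, against 1.61% for *ABCA5* and 0 for *ABCA6*, *ABCA8* and *ABCA9*. Of stretches of 50 bases, 3.01% were shared in *ABCA10*, 2.02% in *ABCA5*, 0.617% in *ABCA9*, 0.492% in *ABCA8* and 0 in *ABCA6*. Counts of the cluster genes other than *ABCA6* are uncertain to that extent, and those of *ABCA5*, *ABCA10*, *ABCA6* and *ABCA9* also where their annotated ends overlap.

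The 250 bases before the transcript start were taken from RefSeq (GRCh38.p14) for *ABCA6* and *ABCA5*, whose windows, of those of the 4 cluster genes with an entry (all but *ABCA8*), lie outside every annotated gene. They are shown because *ABCA6* rose by far more than *ABCA5* although the same cluster holds both. The *ABCA6* window is chr17:69141896-69142145 and the *ABCA5* window chr17:69327134-69327383, both read on the minus strand from 5′ to 3′. Capitals mark matches to the motifs searched.
ABCA6: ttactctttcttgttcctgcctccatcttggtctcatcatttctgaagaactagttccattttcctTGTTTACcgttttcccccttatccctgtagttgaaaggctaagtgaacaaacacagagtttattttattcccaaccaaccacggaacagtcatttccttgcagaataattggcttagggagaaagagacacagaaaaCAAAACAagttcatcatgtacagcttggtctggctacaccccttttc
ABCA5: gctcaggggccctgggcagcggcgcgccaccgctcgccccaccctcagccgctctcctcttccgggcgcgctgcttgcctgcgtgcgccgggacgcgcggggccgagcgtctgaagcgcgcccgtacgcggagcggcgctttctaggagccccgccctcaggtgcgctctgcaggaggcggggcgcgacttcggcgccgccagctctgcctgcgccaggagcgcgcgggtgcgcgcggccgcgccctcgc
Motifs searched on both strands were the forkhead core GTAAACA, the insulin response core CAAAACA, the palindromic E-box CACGTG and the sterol element CACCCCAC. The *ABCA6* window held 1 forkhead core, on the opposite strand and beginning 184 bases before the start, and 1 insulin response core beginning 47 bases before it. Among 35116 windows of this length, 2.98% held the forkhead core and 4.30% the insulin response core. The *ABCA5* window held none of the motifs, as did both *ABCA10* windows. The *ABCA9* window held 1 insulin response core and 1 E-box, which occurred in 6.34% of all windows, while the sterol element (2.43% of all windows) was found in none of the windows of *ABCA5*, *ABCA6*, *ABCA9* and *ABCA10*. GC content was 40.8% with 2 CpG dinucleotides for *ABCA6* and 79.2% with 42 for *ABCA5*, against medians of 58% and 11. Of all windows, 14.9% had a GC content at or under that of *ABCA6* and 96.3% at or under that of *ABCA5*, and for CpG dinucleotides these shares were 22.9% and 99.0%. A match describes letters only and is not a binding site.

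*ABCA6*, an intracellular transporter gene known from other cells as a target of FOXO forkhead factors, was barely counted with serum. With serum, WT1 had 5 counts, WT2 17, WT3 24 and WT4 13, or 0.133, 0.259, 0.561 and 0.458 CPM. Without serum it had 118, 199, 170 and 344 counts, or 2.80, 2.60, 4.37 and 6.11 CPM. Every serum-free library was above every serum library, and WT4 was highest without serum. Within the lines WT1 to WT4 the rise was 21.1-fold, 10.1-fold, 7.79-fold and 13.3-fold in turn. On the log2 scale the difference within lines was 3.42 ± 0.51 (SD, n = 4), and the fold change fitted by edgeR was 3.50. In bulk RNA, a change in the number of expressing cells and a change in RNA per cell cannot be told apart.

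*ABCA9* was the scarcest cluster gene and was not tested, having failed edgeR's filter on low counts. With serum, WT1 and WT2 had 1 count each, WT3 had 2 and WT4 had 0. Without serum the counts of WT1 to WT4 were 3, 13, 26 and 6. The conditions did not overlap in CPM, with WT3 highest in both, but the 0 counts of WT4 with serum allow up to 0.106 CPM, above the 0.0711 CPM of WT1 without serum. Summed over libraries, *ABCA9* had 4 counts with serum and 48 without, of which WT3 alone gave 2 and 26.

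*ABCA8* was ordered by line more than by serum. With serum, WT1 stood at 1.40 CPM, WT2 at 0.152, WT3 at 0.608 and WT4 at 2.47. Without serum the levels were 2.70, 0.183, 1.18 and 6.95 CPM in the same lines. Each line was higher without serum, yet the conditions overlapped, because WT1 and WT4 with serum exceeded WT2 and WT3 without it. The within-line log2 difference of *ABCA8* was 0.88 ± 0.52 (SD, n = 4), lowest in WT2 (0.21) and highest in WT4 (1.48). The fitted log2 fold change of 1.30 became 0.25 when the serum-free library of WT4 was left out and 1.98 when its serum library was.

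*ABCA10*, the most abundant cluster gene, was at 12.3, 10.5, 12.5 and 11.4 CPM with serum in the lines WT1 to WT4. Without serum the *ABCA10* levels were 14.8, 16.7, 16.5 and 22.8 CPM. The conditions did not overlap, and WT4 without serum stood above the other lines. Its within-line difference was 0.58 ± 0.32 on the log2 scale (SD, n = 4).

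*ABCA5*, whose product is a lysosomal transporter, had 9.46, 8.89, 10.1 and 7.89 CPM with serum in WT1 to WT4. Without serum *ABCA5* reached 13.8, 14.2, 14.6 and 14.9 CPM. The serum-free libraries lay close together and all above the serum libraries. The within-line log2 difference of *ABCA5* was 0.67 ± 0.18 (SD, n = 4), and the fitted log2 fold change was 0.66. With a replicate block and a correction for GC content, the fitted value of *ABCA5* was 0.96, a shift larger than that SD.

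**Figure D1:**
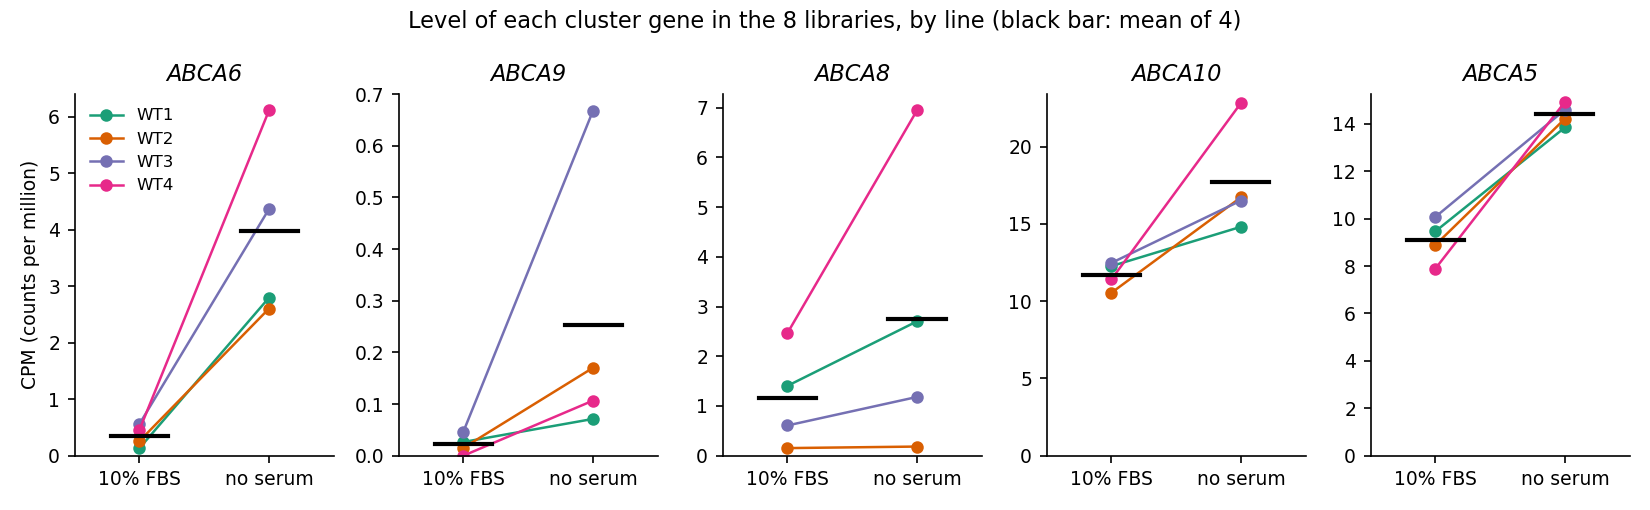
CPM of each cluster gene (y axes from 0, scaled by gene) with 10% FBS and without serum. Points are libraries, lines join the libraries of a line, and black bars are means of 4. *ABCA6* lies at or under 0.561 CPM in the serum libraries and at or above 2.60 CPM in the serum-free ones, while *ABCA8* overlaps between conditions.

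Of the 4 cluster genes tested, 3 passed edgeR's threshold upward (*ABCA5*, *ABCA6* and *ABCA10*), and all 4 passed with the line as a replicate block. Over all 17671 genes tested, 11.1% passed upward, or 23.2% with the block. Since this contrast chose the genes, nothing is read from these counts. Conditions did not overlap, with every serum-free library higher, for 3 of the 4 cluster genes tested and for 12.6% of all tested genes. In total 4434 genes (25.1%) passed, 1957 upward and 2477 downward (14.0%), and 8067 passed with the replicate block. Upper-quartile scaling changed that split to 2508 upward and 1843 downward, but the fitted log2 fold changes of *ABCA5*, *ABCA6*, *ABCA8* and *ABCA10* stayed above 0 under each scaling.

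At a mean of 111.2 counts, *ABCA6* was close to the minimum of 100 and had the largest log2 fold change of the 11532 protein-coding genes above it. *ABCA6* met that minimum only through its serum-free libraries, with 831 counts summed there and 59 with serum. Its rank therefore rests on a filter that the rise itself let it pass. Next below *ABCA6* came *ISLR* (3.31), *TCP11L2* (2.94) and *BMF* (2.62). Under the minimum, 1 protein-coding gene had a larger log2 fold change than *ABCA6*, namely *LGR6* (3.57, mean 39.8 counts), which was looked up after its value was seen. *ABCA5* ranked at 740 and *ABCA10* at 901 by the same measure, and *ABCA8*, with a mean of 90.5 counts, fell short of the minimum. Low counts went with higher values in general. The median log2 fold change was 0.39 over 2041 tested protein-coding genes under 100 counts, 0.15 over 3911 genes from 100 to 1000 counts and -0.10 over 7621 genes above. The part of this trend in the values of *ABCA6* and *ABCA8* was not tested.

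**Figure D2:**
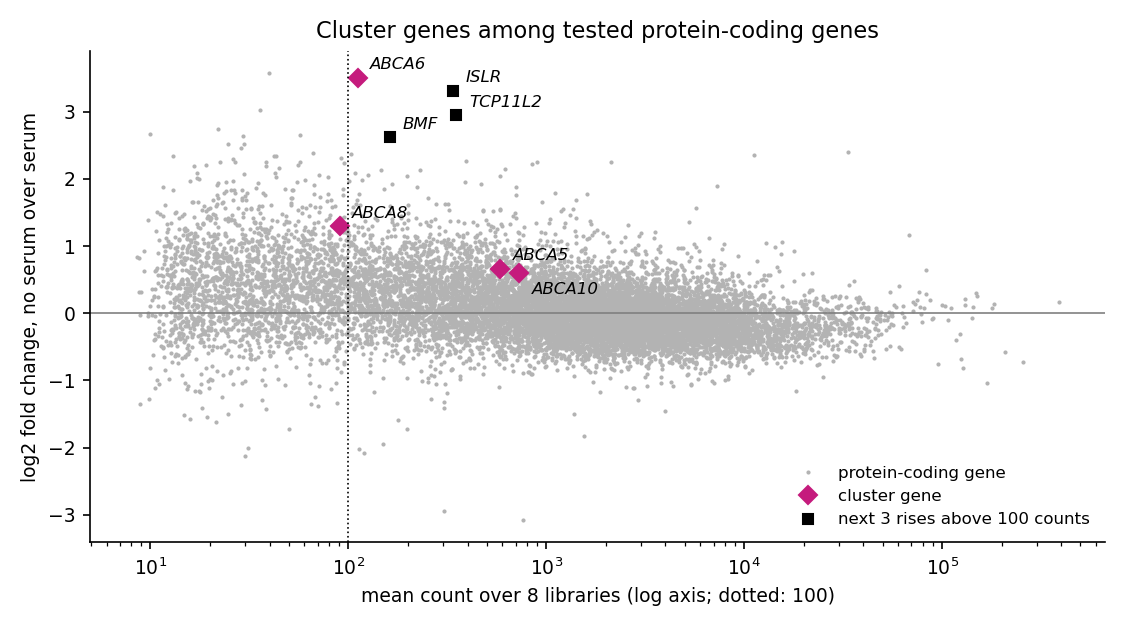
Log2 fold change without serum over with serum (y axis) against mean count over 8 libraries (x axis, log scale) for tested protein-coding genes. *ABCA6* (3.50) stands above *ISLR* (3.31) just right of the dotted line at 100 counts, and *ABCA5* and *ABCA10* lie near 0.6.

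Levels of different genes were compared per length, as RPKM (CPM per kilobase of merged exons). With serum the order was *ABCA10* (1.39 ± 0.105 RPKM), *ABCA5* (0.690 ± 0.0705), *ABCA8* (0.103 ± 0.0902), *ABCA6* (0.0249 ± 0.0136) and *ABCA9* (0.00245 ± 0.00218; SD, n = 4). Without serum, *ABCA10* (2.11 ± 0.418) and *ABCA5* (1.09 ± 0.0355) kept the upper places, and the means of *ABCA6* (0.280 ± 0.115) and *ABCA8* (0.245 ± 0.265) stood in the reverse order, followed by *ABCA9* (0.0281 ± 0.0309; SD, n = 4). *ABCA6* and *ABCA8* did not differ beyond their spread in either condition. Within lines the order of *ABCA6* and *ABCA8* changed in WT3 alone, while *ABCA8* was above *ABCA6* in both conditions in WT1 and WT4 and below it in both in WT2. In WT2 without serum *ABCA9* also stood above *ABCA8*, which was last. All 5 cluster genes were under the median of tested genes, which was 2.75 RPKM with serum and 2.93 without. *ABCA6* ranked at 17312 among 17425 genes with a known length in serum and at 14923 without. Its share of the summed RPKM of the cluster went from 1.13% to 7.47%, while that of *ABCA10* went from 62.9% to 56.1% and that of *ABCA5* from 31.2% to 29.1%. With the length of the longest transcript, with TPM or without TMM, the order of the mean levels within each condition was as given above.

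Differences between the 4 lines had no part in the choice of the genes and were tested with edgeR's quasi-likelihood test on the line terms of an additive model, adjusted by Benjamini-Hochberg over all genes. Of the 4 cluster genes tested, 2 differed between lines, *ABCA8* and *ABCA6*, while 22.9% of all tested genes did. *ABCA8* had an adjusted p of 1.10e-06 by edgeR. Its mean level over both conditions was 4.71 CPM in WT4, 2.05 in WT1, 0.895 in WT3 and 0.168 in WT2. On these means WT4 was 28.1-fold above WT2, a ratio that depends on the condition. With serum WT4 had 2.47 CPM against 0.152 in WT2, and without serum 6.95 against 0.183. For *ABCA6* edgeR's adjusted p was 0.0160. Its log2 CPM lay on average 0.60 above the condition means in WT4 and 0.49 in WT3, with a mean deviation of -0.38 in WT2 and -0.72 in WT1. The lowest line was WT1 with serum and WT2 without, and the highest was WT3 with serum and WT4 without. The *ABCA6* call was lost without the serum-free library of WT2 (edgeR's adjusted p = 0.101). No difference passed for *ABCA10* (edgeR's adjusted p = 0.355, ratio 1.26) or *ABCA5* (edgeR's adjusted p = 0.851, ratio 1.08). Without the serum library of WT4, *ABCA10* passed (edgeR's adjusted p = 0.0119). WT4 was high in both *ABCA6* and *ABCA8*, whereas WT3 was above the average in *ABCA6* and below it in *ABCA8*, and WT1 the reverse.

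**Figure D3:**
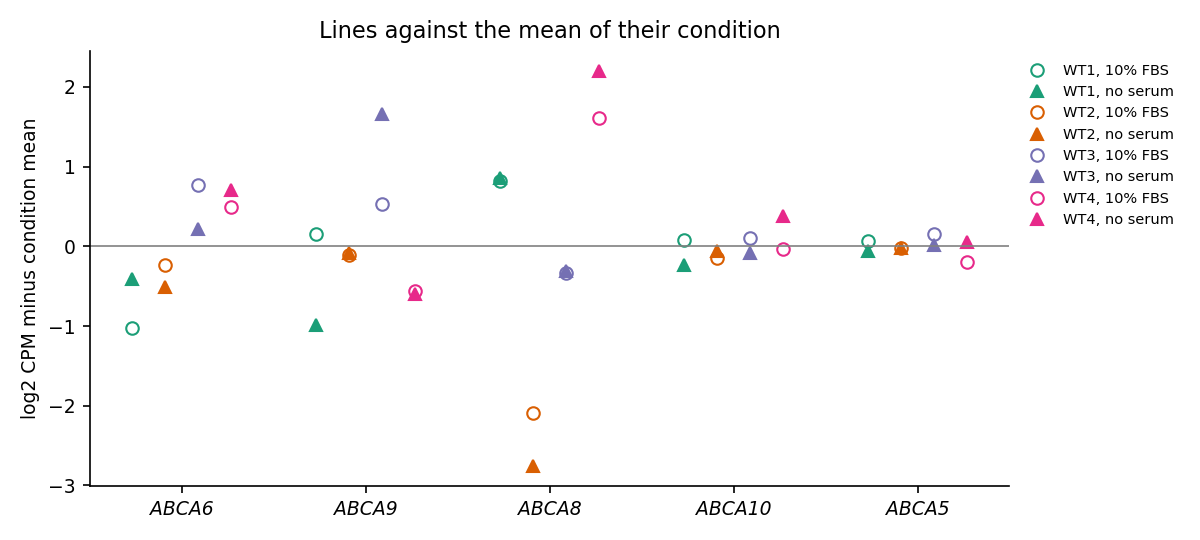
Log2 CPM minus the mean of the condition (y axis) for each cluster gene, with open circles for 10% FBS and triangles for no serum, coloured by line. *ABCA8* spreads widest, with WT2 lowest and WT4 highest in both conditions, and *ABCA5* lies close to 0. *ABCA9* rests on few counts.

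Similarity to *ABCA6* was described by Pearson's r over 8 libraries, which share depth and line, among 11531 protein-coding genes of at least 100 counts. By log2 CPM the closest were *OGFOD3* (r = 0.997), *SLC35E2B* (0.996), the cyclin gene *CCNG2* (0.996), *AHRR* (0.994), which encodes the aryl hydrocarbon receptor repressor, and *SFXN3* (0.993). By deviations from the condition means, which set the serum difference aside, they were the cytokine receptor gene *IL6R* (0.985), the kinase gene *CDC42BPB* (0.979), *SLC35E2B* (0.978), *OGFOD3* (0.976) and *WDR7* (0.976). *SLC35E2B* and *OGFOD3* were in both lists. These are the highest of 11531 values, each over 8 libraries, and no chance level was set for them. Within the cluster, r with *ABCA6* by log2 CPM was 0.913 for *ABCA5*, 0.887 for *ABCA10*, 0.750 for *ABCA9* and 0.361 for *ABCA8*. By deviations the values fell to 0.0737 for *ABCA5*, 0.468 for *ABCA10*, 0.107 for *ABCA9* and 0.350 for *ABCA8*.

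The other ABCA genes showed whether the rise extended to the subfamily, and 6 of the 7 were tested. *ABCA3*, a phospholipid transporter gene of lung surfactant, rose in all 4 lines with a log2 fold change of 1.96 ± 0.30 (SE; edgeR's adjusted p = 0.00256). Its level went from 0.442 ± 0.151 to 1.71 ± 0.398 CPM (SD, n = 4). *ABCA2* (0.49, edgeR's adjusted p = 0.0578) and *ABCA7* (0.45, edgeR's adjusted p = 0.210) did not pass, but were higher in all 4 lines and passed with the replicate block (edgeR's adjusted p = 3.15e-05 and 0.00504). With the block and a correction for GC content *ABCA2* passed at a smaller log2 fold change (0.26, edgeR's adjusted p = 7.17e-04) and *ABCA7* did not pass (0.20, 0.142). *ABCA2* passed in 8 of 20 alternatives, DESeq2, voom and upper-quartile scaling among them, and *ABCA7* in 1. On the log2 scale the fitted differences were 0.24 for the cholesterol exporter gene *ABCA1* (edgeR's adjusted p = 0.616, 0.0646 under the block and 0.0133 under the block with GC correction), 0.02 for *ABCA13* (0.973) and -0.26 for *ABCA12* (0.693). With 1 library left out these values ran from -0.05 to 0.45 for *ABCA1*, from -0.19 to 0.31 for *ABCA13* and from -0.43 to 0.04 for *ABCA12*, so that each changed sign. *ABCA4* had at most 1 count in any library. The median over the 6 genes was 0.34, against 0.03 over all tested genes and 0.98 over the 4 tested cluster genes, which were chosen for a rise.

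**Figure D4:**
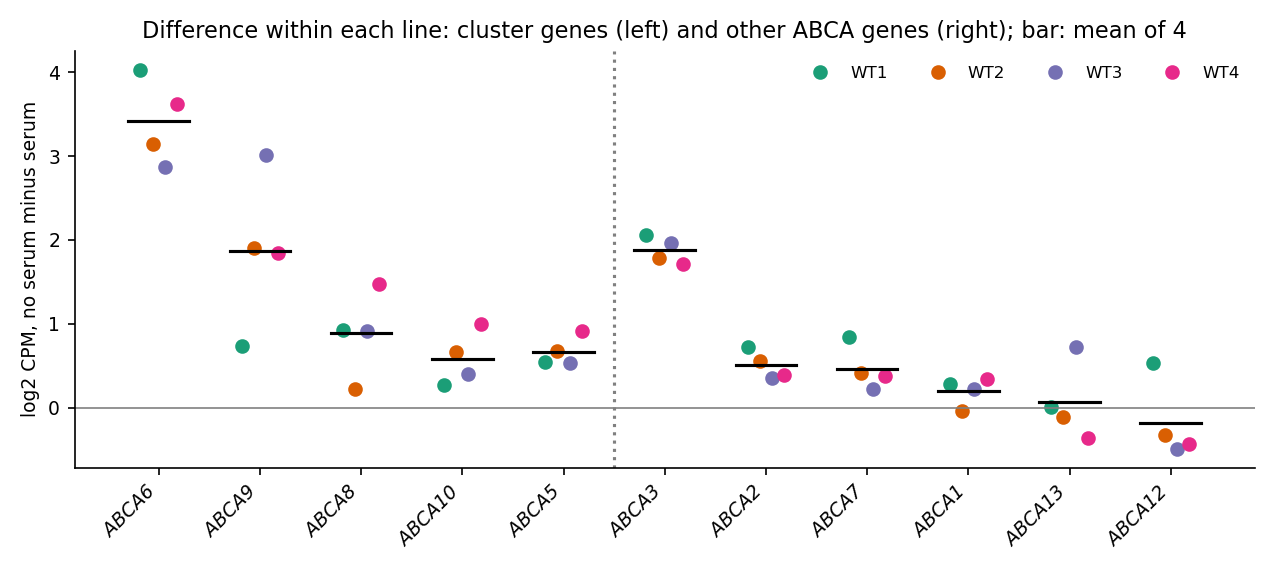
Log2 CPM without serum minus with serum within each line (y axis, log2 CPM with a prior count of 2) for the cluster genes, left of the dotted line, and the other ABCA genes, right of it. Bars are means of 4 lines. All 4 lines of *ABCA6* lie between 2.87 and 4.03, and *ABCA3* is the nearest of the other ABCA genes. Values of *ABCA9* depend on the prior count.

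Beyond the cluster, 33 of 42 ABC genes were tested, and 5 rose and 7 fell, or 14 and 9 with the replicate block. Over all tested genes 11.1% rose and 14.0% fell, or 23.2% and 22.4% with the block. Besides *ABCA3* the rises were *ABCC10* (log2 fold change 0.51, edgeR's adjusted p = 0.00430), *ABCD4* (0.59, 0.00651), *ABCC3* (1.54, 0.0107) and *ABCG1* (1.60, 0.0491). The falls were led by *ABCF2* (-0.51, edgeR's adjusted p = 0.00221), *ABCE1* (-0.67, 0.00523) and *ABCF1* (-0.30, 0.00530), genes of soluble ABC proteins that act in translation, and by the peptide transporter gene *TAP2* (-0.44, 0.0284). With the block and GC correction the log2 fold change of *ABCE1* was -0.42. With upper-quartile scaling 3 fell. The calls of *ABCG1* and *TAP2* were each lost in 10 alternatives, that of *ABCC3* in 2, and those of *ABCD4* and *ABCF1* in 1 each.

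Genes around the cluster were compared with it within 1000 kb of either end, where 14 genes other than the cluster genes were tested. Their median log2 fold change was 0.25, against 0.03 over all tested genes. The nearest on the *ABCA8* side, *FAM20A* at 265.9 kb, stood at 0.89 on the log2 scale (edgeR's adjusted p = 0.0572, and 0.00400 under the replicate block), and passed in 7 of 20 alternatives. Without the serum-free library of WT4 its value was 0.55. On the *ABCA5* side the nearest was the kinase gene *MAP2K6* at 87.6 kb, with 0.25 (edgeR's adjusted p = 0.179, and 0.0516 under the block). It passed in 1 of 20 alternatives, the block with GC correction, which gave 0.43 on the log2 scale (edgeR's adjusted p = 7.91e-04). The autophagy gene *WIPI1*, 409.8 kb from *ABCA8*, rose by 0.95 (edgeR's adjusted p = 0.0408), from 7.08 ± 2.63 to 13.6 ± 4.40 CPM (SD, n = 4), and lost its call in 10 of 20 alternatives. *KPNA2*, an importin gene at 820.4 kb, fell by 0.62 on the log2 scale (edgeR's adjusted p = 0.00148). No other gene passed without the block, and with it 4 rose (*FAM20A*, *WIPI1*, *KCNJ2* and *KCNJ2-AS1*) and 2 fell (*KPNA2* and *SLC16A6*). Of all tested genes 11.1% rose and 14.0% fell, or 23.2% and 22.4% with the block. *WIPI1* overlaps *ARSG* and lies wholly within *PRKAR1A*, which *FAM20A* overlaps too. *PRKAR1A* stood at 356.8 ± 42.4 CPM with serum and 400.4 ± 115 without (SD, n = 4), far above both, so their counts are uncertain where the counting did not use strand, which is not given in the sources used here.

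**Figure D5:**
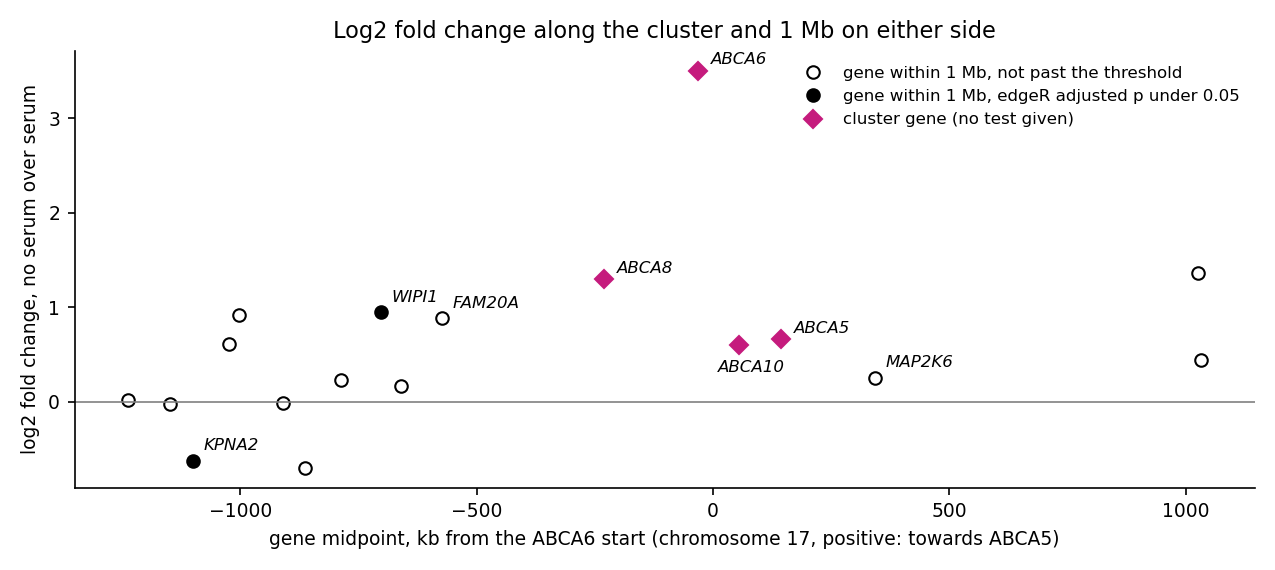
Log2 fold change without serum over with serum (y axis) against the distance of each gene's midpoint from the *ABCA6* start (x axis, kb). Diamonds are cluster genes, filled circles passed edgeR's threshold and open circles did not. *ABCA6* (3.50) stands above its neighbours on both sides, *ABCA8* (1.30) and *ABCA10* (0.60), and *ABCA9* was not tested.

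Lists of sterol and FOXO genes were set beside the cluster because both are known for regulating some of its genes. Like the cluster, the lists were chosen with earlier results of these data known. They are read beside the 11.1% of all tested genes that rose and the 14.0% that fell (23.2% and 22.4% with the replicate block), and their median log2 fold change of 0.03. Of 11 tested genes of the sterol list, 5 rose and 0 fell (10 and 0 with the replicate block), with a median log2 fold change of 0.31. They included *INSIG1* (1.78, edgeR's adjusted p = 0.00114) and *STARD4* (0.96, 0.00196). Among 7 targets of the sterol-sensing LXR receptors 3 rose, the LXR gene *NR1H3* itself (0.87, edgeR's adjusted p = 0.00283), *SMPDL3A* (0.54, 0.0447) and *ABCG1* (4 with the block), with a median of 0.53. *SMPDL3A* lost its call in 12 of 20 alternatives. Of 12 tested FOXO targets 6 rose and 0 fell (8 and 0 with the block), with a median of 0.47. The smallest p-values were those of *FBXO32* (1.69, edgeR's adjusted p = 8.28e-04), *KLHL24* (1.42, 8.88e-04) and the insulin receptor gene *INSR* (0.44, 0.00478). *SESN3*, named after its value was seen, had the next largest rise after *FBXO32* (1.66, edgeR's adjusted p = 0.0275). For *SESN3* no alternative other than the block was run. The FOXO genes themselves rose in 3 of 4 cases, *FOXO3* (0.64, edgeR's adjusted p = 0.00184), *FOXO4* (1.17, 0.00285) and *FOXO6* (1.22, 0.0216), whose call was lost in 7 of 20 alternatives, all with libraries left out. *FOXO1* stood at 0.29 (edgeR's adjusted p = 0.497, and 0.0132 under the replicate block), and between 0.11 and 0.60 with 1 library left out. Of 16 lysosomal genes, the compartment of ABCA5, 3 rose and 1 fell (10 and 2 with the replicate block), with a median of 0.18. These were *GAA* (0.54, edgeR's adjusted p = 0.0103), *CTSB* (0.51, 0.0265), *HEXA* (0.29, 0.0405), named after its value was seen, and *GLA* (-0.43, 0.0194). The call of *HEXA* was lost in 13 of 20 alternatives, that of *CTSB* in 7, and those of *GAA* and *GLA* in 2 each. With the block and GC correction the log2 fold change of *GAA* was 0.28. Nothing about control of the cluster was tested by these lists.

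Marker genes were read because cluster genes are also expressed in fibroblasts and fat. The melanoma state gene *AXL* (590.4 CPM with serum, 471.5 without) and *MITF* (40.2 and 33.1 CPM) were found in every library, and *MITF* fell (log2 fold change -0.28, edgeR's adjusted p = 0.0496; call lost in 13 of 20 alternatives, and -0.14 with the block and GC correction), while the lineage gene *SOX10* had 0 counts in all 8. Of the 10 melanoma markers, 5 or 6 were under 1 CPM in each library, *PMEL*, *TYR* and *TYRP1* in all of them. With the replicate block *AXL* (edgeR's adjusted p = 5.88e-04) and *DCT* (0.0251) also passed downward and *S100B* (0.0469) upward, but *DCT* and *S100B* did not when GC content was corrected as well. Summed levels of 4 adipocyte markers were between 0.0609 and 0.176 CPM, and those of 6 leukocyte markers between 0.694 and 1.49 CPM. The 7 fibroblast markers summed to 12.3, 8.98, 9.74 and 8.38 CPM with serum and 12.9, 12.0, 13.6 and 12.2 CPM without, in the order WT1 to WT4. They were led by *LUM* with serum, and of the collagen genes *COL1A1* was at 1.43 CPM on average with serum and 1.61 without, whereas *COL1A2* and *COL3A1* were at 0.0772 and 0.0758 CPM with serum and 0.0372 and 0.0330 without. Among the fibroblast markers *PDGFRA* alone passed without the block (log2 fold change 1.77, edgeR's adjusted p = 0.00767), a call lost without both libraries of WT1 (0.0523). With the block *DCN* (edgeR's adjusted p = 0.0125) and *FBLN1* (0.0136) passed upward too. The part of these markers in the rise of *ABCA6* was not tested. The 6 keratin and epithelial markers summed to between 43.5 and 64.6 CPM. They were led by *KRT10* (41.9 CPM with serum, 33.8 without) and *KRT14* (17.2 and 15.4). Only *KRT10* of them passed, downward, a call lost in 8 of 20 alternatives. The 3 endothelial markers tested summed to between 12.9 and 47.4 CPM, mostly *KDR* (21.4 CPM with serum, 26.4 without). None of the 3 passed without the block, and *KDR* rose with it (edgeR's adjusted p = 0.00800). Without the block, leaving out 1 library moved the log2 fold change of *DCN* between 0.25 and 1.52, of *FBLN1* between 0.13 and 1.01 and of *KDR* between -0.10 and 0.82. For the melanoma markers these ranges were -1.53 to -0.13 (*DCT*), 0.02 to 0.45 (*S100B*) and -0.44 to -0.17 (*AXL*). Reads aligned to several places, left uncounted, made up 22.7%, 16.8%, 7.09% and 10.1% of the serum libraries and 6.76%, 7.23%, 7.73% and 5.73% of the serum-free libraries of WT1 to WT4, and their part in the cluster values was not tested.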

How the data were processed

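Values deposited by the authors are whole-number counts of reads on each gene, without normalization. The submitters' processing notes name cutadapt, TopHat2 2.0.11, HTSeq and GRCh38, whereas the paper's methods name hg19 for its own values. The strand setting is not given in the sources used here. The 5 summary rows of each file were left out. Beside reads on genes, only ambiguous reads and reads aligned to several places were recorded. Ambiguous reads made up between 8.23% and 11.5% of the reads recorded.

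Symbols were matched for 55604 of 58051 identifiers. Exon lengths and base composition were read from GENCODE gene models on GRCh37, another build, with GC content known for 98.6% of tested genes. edgeR 4.0.16 (filterByExpr, TMM, robust glmQLFit, glmQLFTest, Benjamini-Hochberg threshold 0.05) in R 4.3.3 compared the conditions without a block, and the lines in an additive model. Log2 CPM used a prior count of 2. The tests were checked on simulated data, where the share of false calls in the test between lines was above its threshold of 0.05.

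The line number pairs libraries of the same cell line: deviations from condition means correlated at 0.40, 0.59, 0.46 and 0.60 (WT1 to WT4), against at most 0.13 between different lines. Nothing says that a line was cultured more than once per condition, so p-values of the unblocked serum comparison measure the spread between lines. With the line in the model, in the block and in the test between lines, they measure what departs from additive line and serum terms.

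Cluster members and lists were chosen with earlier results of these data known. Named genes were those of the cluster, other ABCA genes, the 4 other ABC genes with the smallest p in each direction, the nearest and the called neighbours, up to 3 called genes per list, the 5 most like *ABCA6* by each measure and the 3 next rises. A gene of the sterol list that the rule takes is not reported here. Alternatives were a replicate block, with or without GC correction, DESeq2 1.42.0, limma 3.58.1 (voom), RLE and upper-quartile scaling, 2 other filters, a window of 500 kb, other length scales, and each library or line left out.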

Additional observations from a re-analysis of the deposited data

Results flagged for a closer look

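*ABCA9* in WT3 without serum, at 0.668 CPM, lay far from the other 3 serum-free libraries, although it rests on 26 counts. The log2 difference of *ABCA12* in WT1, 0.531, lay far above those of the other lines, on counts of 15 and 25. Among 36 sets of 4 values searched in the ABCA genes, chance gives about 1.8 such cases.

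Some lines moved against the others. *ABCA1* had a log2 difference of -0.042 in WT2 and was higher without serum in the other lines, *ABCA12* was higher without serum in WT1 alone (0.531), and *ABCA13* was lower in WT2 (-0.118) and WT4 (-0.361) but not in WT1 and WT3. These differences between lines were not tested.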

How the results depend on the processing

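The fitted log2 fold changes of *ABCA5*, *ABCA6*, *ABCA8* and *ABCA10* stayed above 0 in each alternative that gave one, between 3.22 and 3.84 for *ABCA6*, which dropped out at a minimum of 10 counts in every library. *ABCA8* ranged from 0.25 to 1.98 and was the value most open to a single library. For *ABCA5*, the replicate block with GC correction gave 0.96.

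With the replicate block, 8067 genes were called, 14 other ABC genes rose, and 4 neighbours rose and 2 fell. With the block and GC correction these were 8163 genes, 13 other ABC genes rising, and 6 neighbours rising and 1 falling. The neighbour that fell there was *KPNA2*, and *SLC16A6* did not pass. The block changed no call of the listed genes and neighbours other than those counted or named with the results. Neighbours rising numbered 3 with DESeq2 and 2 with voom, upper-quartile scaling, no filter on low counts or at least 10 counts in every library. With upper-quartile scaling 3 other ABC genes fell. Within 500 kb, 1 neighbour rose and 0 fell.

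Leaving out 1 library gave 2842 (without WT1 with serum) to 6128 (without WT4 with serum) called genes, 4 to 10 other ABC genes rising, 3 to 8 falling, and 0 to 2 neighbours rising. Without both libraries of WT1, 1589 genes were called, with 3 other ABC genes rising and 2 falling and 0 neighbours rising. Without WT2 these were 1975 genes, 3 falling and 0 neighbours rising, and without WT3 1873 genes, 3 rising, 3 falling and 0 neighbours rising. Without WT4, 5631 genes were called, more than the 4434 with all lines, 10 other ABC genes rose and 2 neighbours fell. The cause was not tested.

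Leaving out libraries in the test between lines was added after seeing the data, as were the alternatives for *HEXA*, *FOXO1*, the markers and the nearest neighbours. It gave 2364 (without WT2, serum-free) to 7580 (without WT4, serum-free) genes, and 2442 without WT3, serum-free. Adjusted p-values from edgeR ran from 0.00289 to 0.101 for *ABCA6*, from 0.0119 to 0.858 for *ABCA10*, from 7.79e-10 to 1.57e-04 for *ABCA8* and from 0.501 to 0.987 for *ABCA5*. With voom, RLE scaling or no filter on low counts these 4 calls did not change, nor those of *ABCA5*, *ABCA8* and *ABCA10* at 10 counts in every library. DESeq2 and upper-quartile scaling were not run for the lines. Depth limits *ABCA9*, the serum level of *ABCA6* (5 to 24 counts) and *ABCA8* in WT2 (10 and 14 counts).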
